A study of Mus musculus with 6 samples.

Results

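The genes described here are 6 fibroblast growth factor (FGF) ligands, Fgf1, Fgf2, Fgf7, Fgf8, Fgf10 and Fgf18, and the 4 FGF receptors, Fgfr1 to Fgfr4. A probe was taken as a member where its gene name on the array was one of these symbols, which gave 21 probes for the 10 genes, of 39429 probes for 30100 gene names in all. The RNA came from female mice, from cells of the anterior pituitary that pump out the dye Hoechst (the side population), sorted by flow cytometry with the cells of high Sca1 left out and the neurointermediate lobe removed beforehand. The study calls this sort the stem cell fraction of the gland.

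All mice carried iDTR, an inducible diphtheria toxin receptor, and every group was given the toxin, 4 ng for each g of body weight, 2 times a day. Controls were -/iDTR mice, which lack Cre, so they differ from the other genotype in the Cre and not in the toxin. GHCre/iDTR mice also carry Cre driven by the growth hormone promoter, so that growth hormone cells make the toxin receptor and are ablated by the toxin. Treatment lasted 3 days (3DT) or 10 days (10DT). The 3-day groups held 2 arrays each, and the 10-day groups held 1 array each. The age of the mice and the number of mice behind each array are not given in the sources used here, and nothing says that replicates came from separate animals, so the p-values measure only the spread between these samples, which may be technical. RNA was amplified before labelling. The titles and the genotype and treatment fields put the arrays in these groups. The free-text descriptions name other groups for all arrays but control replicate 1 of 3 days. They call both GHCre arrays of 3 days non-regenerative, and control replicate 2 of 3 days and the control of 10 days regenerative after 3 days. The GHCre array of 10 days is there a control of 3 days. The grouping used here follows the titles.

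Some facts of the arrays bear on every value. Between 53.8% and 65.7% of probes were well above background on an array, and the arrays correlated with each other at r between 0.866 and 0.916 over probes. The median gap between replicates of the 3-day groups was 0.73 on the log2 scale in the controls and 0.58 in the GHCre mice. Slide 1 held replicate 1 of both 3-day groups, slide 3 held replicate 2 of both together with the GHCre array of 10 days, and slide 2 held the control array of 10 days alone. After 10 days, slide and genotype therefore cannot be told apart. The growth hormone gene Gh, a sign of the cells targeted, was at 5.69 and 3.65 in the controls and at 5.46 and 2.20 in the GHCre mice after 3 days, and at 7.86 and 2.21 after 10 days. The stem cell regulators Sox2, Prrx2 and Hesx1 were not well above background on any array, whereas Sox9, S100b, Cxcr4, Abcg2 and Ly6a were above it on all 6.

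FGF ligands are secreted proteins that bind heparan sulphate on the cell surface and a tyrosine kinase receptor at the same time. The bound receptors pair and phosphorylate each other, and adaptor proteins pass the signal to the mitogen-activated protein kinases, to phosphatidylinositol 3-kinase and to phospholipase C gamma. The ligands differ in the receptors and splice forms they bind. Fgf7 and Fgf10 act on an epithelial splice form of Fgfr2, Fgf8 and Fgf18 act mainly on mesenchymal splice forms and on Fgfr4, and Fgf1 binds all receptors. In the embryonic pituitary, Fgf8 and Fgf10 from the overlying infundibulum keep the progenitors of the pouch alive and dividing.

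A level here is the log2 processed signal of a probe minus the array's 75th percentile, so 0 is the 75th percentile of that array. Differences are log2 GHCre minus control. Levels of different probes are not compared with each other, because each probe binds its target with a strength of its own. Pieces of 30 bases are printed for the probes on which the results turn, read from the array's probe annotation and placed on mouse genome mm9. Whether a probe lies in a coding exon, an intron or an untranslated region was not analysed here. The 2 Fgf18 probes both lie on the minus strand of chromosome 11, at chr11:33017474-33017503 and chr11:33017470-33017499 for the printed pieces, and share the 26 bases in capitals.
Fgf18 A_55_P1976356: ttgaACGAGGAAACTGCGAGAAACCAAAGT
Fgf18 A_55_P2211319: ACGAGGAAACTGCGAGAAACCAAAGTcctt
The 2 Fgfr2 probes lie on the minus strand of chromosome 7, at chr7:137307503-137307532 and chr7:137307455-137307484 for the printed pieces, and share 42 of their 60 bases. They are shown because the same transcript stretch was well above background on all 6 arrays in one and on 1 array in the other. The capitals mark the 18 bases that each does not share with the other.
Fgfr2 A_55_P2094881: ATGCCTTATGAACCCTGTctgcctcagtat
Fgfr2 A_51_P432403: gttaaaacatgaGTGAATGTGTCTTCCTGT
The 3 Fgfr1 probes lie on the plus strand of chromosome 8, with printed pieces at chr8:26685837-26685866, chr8:26684067-26684096 and chr8:26685072-26685101. They are shown, with a probe of the gene Ercc6l2 at chr13:63971884-63971913 on the plus strand, because the first is a repeat that probes of other genes also carry. The capitals mark the longest run made only of G and T, cut to the printed piece.
Fgfr1 A_55_P1967015: TTTTGTTTTTTGTTTGTTTGTTTGGTTGGT
Fgfr1 A_55_P1967022: acgttcaagcaGTTGGTGGaagacctggac
Fgfr1 A_55_P2057777: gagacgcccaGGGTagcatccgttgctata
Ercc6l2 A_55_P1981884: TTTGTTTGTTTGTTTGGTTGGTTGGTTGGT

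**Figure D1:**
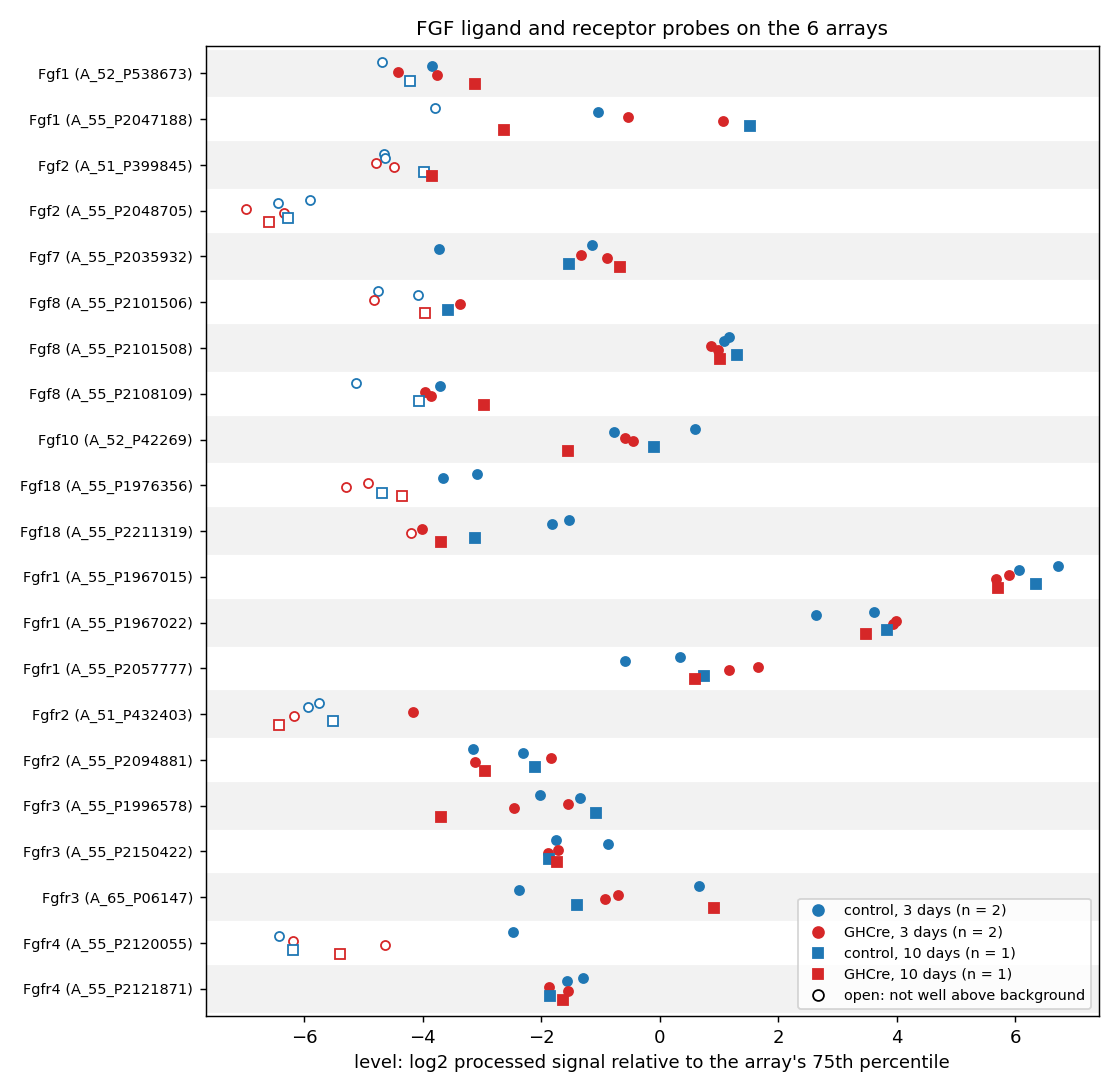
Level of each of the 21 FGF probes (horizontal axis, log2 processed signal minus the 75th percentile of its array) on the 6 arrays. Blue points are controls and red points are GHCre mice, circles are arrays of 3 days (n = 2 per group), squares are arrays of 10 days (n = 1 per group), and open symbols are spots not well above background. Both Fgf18 probes have their control circles above their GHCre circles, while the Fgf2 probes are open on nearly all arrays.

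Of the 21 probes, 17 were well above background on 2 or more arrays, 11 on all 6 and 1 on none. A gene was tested through the brightest of its probes, the one of highest mean over the 6 arrays, if that probe was well above background on 2 arrays or more. By that rule 9 of the 10 genes were tested, all but Fgf2. No member passed an adjusted p of 0.05 in limma after 3 days, and neither did any of the 20916 genes tested (0.00% called). At an unadjusted p below 0.05, 1 of the 9 members was called, Fgf18, against 6.58% of all genes. With a block for the replicate or for the slide it was 2 of 9, Fgf18 and Fgf1 (unadjusted p = 0.0157, adjusted p = 0.692 in limma). It was also 2 of 9 without control replicate 1, with Fgf7, and without control replicate 2, with Fgf1, and it was 0 of 7 where a probe had to be above background on all 6 arrays, which leaves Fgf18 out. Both GHCre arrays were above both control arrays for 1 member, Fgf1, against 16.7% of all genes. Both were below for 3 members, Fgf8, Fgf18 and Fgfr1, against 21.3% of all genes. In either direction that is 4 of 9 members, against 37.9% of all genes. The median difference over the 9 members was -0.21, and over all genes tested it was -0.04. The members' median was -0.42 without control replicate 2 and 0.21 with the mean of all probes of a gene, so its sign depends on which probes are used. Since no gene passed the adjusted test, the differences below are given as values. The sorted cells are a bulk sample, in which fewer cells of a type and less RNA per cell cannot be told apart.

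The ligand with the lowest p after 3 days was Fgf18, a growth factor best known from skeletal and lung development. Its brightest probe, A_55_P2211319, was at -1.54 and -1.82 in the 2 controls and at -4.01 and -4.20 in the 2 GHCre mice after 3 days. After 10 days it was at -3.12 in the control and at -3.69 in the GHCre mouse. The control arrays of 3 days were the highest of the 6, and the control of 10 days lay between them and the GHCre arrays. The difference after 3 days was -2.43 ± 0.41 (SE, n = 2 per group), a level 5.37-fold lower in the GHCre mice (unadjusted p = 0.0041, adjusted p = 0.653 in limma). It was -2.48 within slide 1 and -2.37 within slide 3. With the grouping of the free-text descriptions (regenerative against control after 3 days) the difference of Fgf18 was 0.14. By p, Fgf18 ranked 130 of 20916 genes, and 370 genes, 1.77% of those tested, were lower by as much. The spot was well above background on 1 of the 2 GHCre arrays of 3 days. With normexp background correction in place of Agilent's own, the difference was -1.09 after scaling to the 75th percentile and -0.90 after quantile normalization, so its size depends on the background correction.

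The second Fgf18 probe, A_55_P1976356, shares 26 bases with the first and is thus no independent measure of the transcript. It was at -3.08 and -3.66 in the controls and at -4.92 and -5.29 in the GHCre mice after 3 days, and was well above background on the controls alone. Both GHCre arrays were again below both controls, with a measured difference of -1.74, and -1.85 and -1.63 within slides 1 and 3. Because the GHCre spots have only a bound, the probe was at least 1.95-fold lower there, where the bound sets the control mean against the higher of the dimmest signal called above background and the spot's own value on each GHCre array (adjusted p = 0.706 in limma with each probe fitted on its own). After 10 days neither array was above background for this probe, at -4.68 and -4.35. For the brightest probe the 10-day difference was -0.56, and the 10-day difference minus the 3-day difference was 1.86 ± 0.71 (SE, adjusted p = 1.00 in limma, with the lone 10-day arrays assumed to vary like those of 3 days).

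Fgf1, a ligand without a signal peptide that binds every FGF receptor, had its GHCre arrays above its controls after 3 days and below after 10 days. Its brightest probe, A_55_P2047188, was at -3.79 and -1.05 in the controls, with the first not above background, and at -0.53 and 1.08 in the GHCre mice. After 10 days it was at 1.52 in the control and at -2.62 in the GHCre mouse. The 2 controls of 3 days lay 2.74 apart, more than the 2.69 between the group means. The 3-day difference was 2.69 ± 1.19 (SE, unadjusted p = 0.0857, adjusted p = 0.800 in limma), or 3.26 and 2.12 within slides 1 and 3. Without control replicate 1 it was 1.32, and without control replicate 2 it was 4.06.

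After 10 days the Fgf1 level was 17.7-fold lower in the GHCre array, and 0.607% of the genes tested were lower by as much. The log2 difference was -4.15, with no replicate of its own. In the limma fit, with the lone arrays assumed to vary like those of 3 days, its SE was 1.68 (unadjusted p = 0.0685, adjusted p = 1.00). The difference between the 10-day and 3-day effects was -6.84 ± 2.06 (SE, unadjusted p = 0.0289, adjusted p = 1.00 in limma). Fgf1 was the only one of the 9 members below the unadjusted threshold in this contrast, in which 3.93% of all genes were below it and 0.00% passed the adjusted test. The other Fgf1 probe, A_52_P538673, did not follow this pattern. It was at -4.68 and -3.84 in the controls, at -4.42 and -3.76 in the GHCre mice of 3 days, and at -4.21 and -3.11 after 10 days. Its 3-day groups overlapped, and its difference was 0.17. This probe lay near background and was above it on 4 arrays, not on control replicate 1 of 3 days or the control of 10 days. The GHCre array of 10 days was therefore higher by a bound, at least 1.77-fold. The mean over both probes gave -1.52 after 10 days in place of -4.15.

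Fgf7 and Fgf10, related ligands that mesenchymal cells secrete and epithelial cells receive, were each measured by 1 probe that was well above background on all 6 arrays. Fgf7 was at -1.14 and -3.73 in the controls and at -1.32 and -0.88 in the GHCre mice after 3 days, and at -1.53 and -0.67 after 10 days. A single low array, control replicate 2, set the 3-day value of Fgf7. The difference was 1.33 ± 1.01 (SE, adjusted p = 0.867 in limma), -0.18 within slide 1 and 2.85 within slide 3, and it was 0.04 without control replicate 2 and 2.63 without control replicate 1. The 10-day difference was 0.86.

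Fgf10 was at 0.59 and -0.77 in the controls and at -0.58 and -0.44 in the GHCre mice after 3 days, and at -0.09 and -1.55 after 10 days. Its groups overlapped after 3 days, with a difference of -0.42 ± 0.62 (SE, adjusted p = 0.914 in limma) that was -1.17 within slide 1 and 0.33 within slide 3. Without control replicate 1 the Fgf10 difference was 0.26. After 10 days the GHCre array was 2.75-fold lower, one of the 2 members lower by 2-fold or more beside Fgf1, while 14.0% of all genes were. The Fgf10 probe is spotted 10 times on each array, and its value is the mean of those spots.

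Fgf8, the ligand of the embryonic pituitary's organiser, differed little between arrays at its brightest probe. Its brightest probe, A_55_P2101508, was at 1.17 and 1.10 in the controls, at 0.87 and 0.98 in the GHCre mice of 3 days, and at 1.31 and 1.03 after 10 days. The 6 values spanned 0.44 in all, less than the 0.73 median gap between control replicates over all genes. This probe holds a run of 13 bases made only of G and T, and 1.66% of the array's probes have one as long. A stretch of 15 of its bases or more was found in 1 probe of another gene. What part of its signal comes from Fgf8 RNA was not tested. Both GHCre arrays of 3 days were below both controls, with a difference of -0.21 ± 0.40 (SE, adjusted p = 0.932 in limma). The other 2 Fgf8 probes, which lie elsewhere in the gene, were near background. A_55_P2101506 was above it on 2 arrays and A_55_P2108109 on 4, with 3-day differences of 0.32 and 0.51 and overlapping groups. The mean over the 3 probes was 0.21 higher in the GHCre mice, the opposite direction. Among 11715 genes with a symbol and well above background on all arrays, the 3 whose centred levels over the 6 arrays were nearest to the brightest Fgf8 probe were Ggact, Cryba4 and Gm6025, at root mean square differences of 0.047, 0.047 and 0.048.

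Fgf2, a ligand without a signal peptide that is abundant in many tissues, was the only member not tested. Probe A_51_P399845, whose bases lie on both sides of a gap of the genome and span 47220 bases there, was at -4.64, -4.63, -4.78 and -4.48 on the 3-day arrays, none above background. It was at -3.98 in the control of 10 days and at -3.85 in the GHCre array, the one array on which it was well above background. The other Fgf2 probe, A_55_P2048705, was above background on none of the 6 arrays, between -6.98 and -5.91. The 3-day levels of Fgf2 thus have only an upper bound, and no fold is given.

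**Figure D2:**
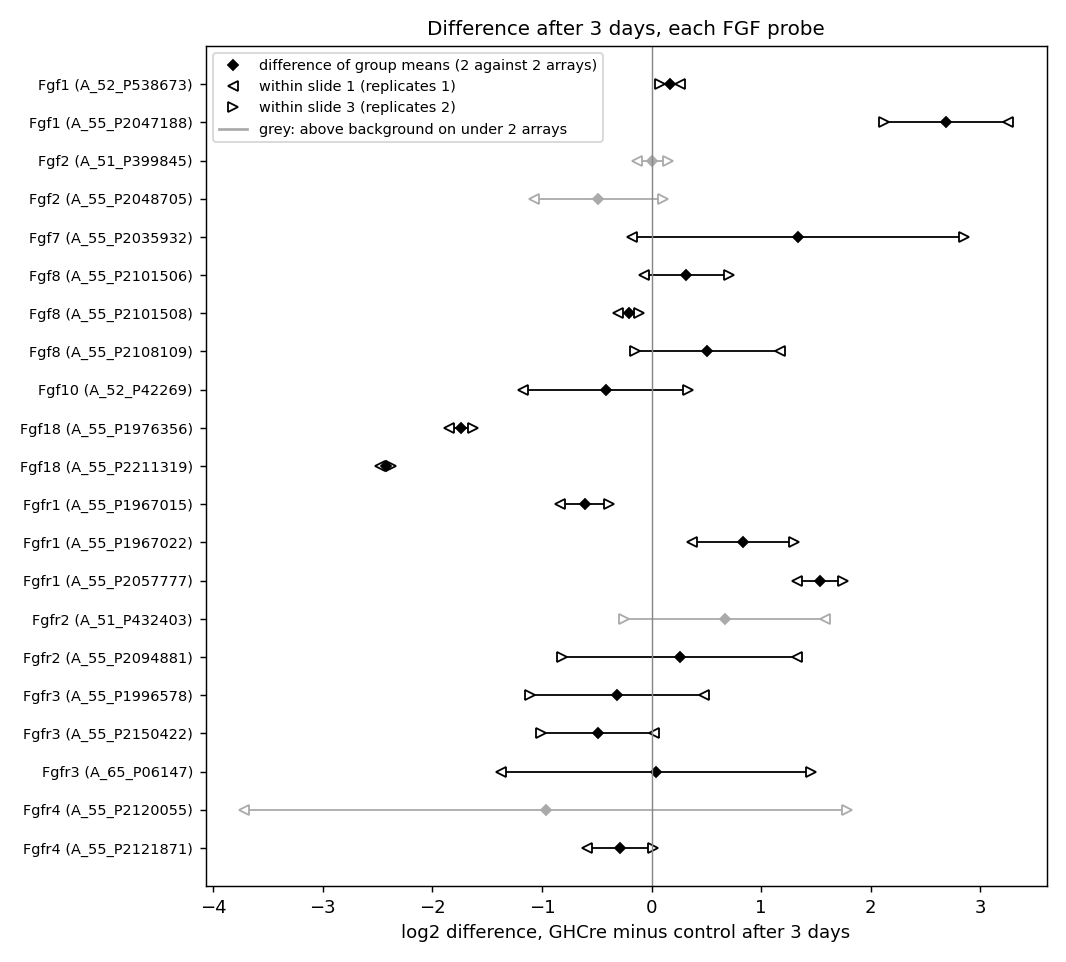
Log2 difference, GHCre minus control after 3 days (horizontal axis), for each of the 21 FGF probes. Diamonds are differences of the group means (2 against 2 arrays), triangles are the differences within slide 1 and within slide 3, and grey marks probes above background on fewer than 2 arrays. The 2 triangles of an Fgf18 probe nearly coincide at about the same negative value, whereas those of Fgf7, Fgf10 and Fgfr3 fall on both sides of 0.

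Of the 17 probes above background on 2 or more arrays, 3 had both GHCre arrays of 3 days above both controls and 4 had them below, where 17.1% and 20.5% of all such probes did. The receptors supplied 3 of these 7 probes, and all 3 belonged to Fgfr1.

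Fgfr1, the receptor of mesenchymal and neural cells among others, had 3 probes well above background on all 6 arrays, which gave opposite directions after 3 days. The probe used in the test, A_55_P1967015, was at 6.72 and 6.07 in the controls, at 5.89 and 5.69 in the GHCre mice, and at 6.36 and 5.71 after 10 days. Both GHCre arrays of 3 days were thus below both controls, as was the lone GHCre array of 10 days below its lone control, and the 3-day difference was -0.61 ± 0.46 (SE, adjusted p = 0.867 in limma), or -0.83 and -0.39 within slides 1 and 3. The second probe, A_55_P1967022, was at 3.63 and 2.65 in the controls, at 4.00 and 3.95 in the GHCre mice, and at 3.85 and 3.49 after 10 days. The third, A_55_P2057777, was at 0.34 and -0.58 in the controls, at 1.66 and 1.17 in the GHCre mice, and at 0.75 and 0.60 after 10 days. Both were higher in both GHCre arrays of 3 days than in either control. The difference of the second was 0.84 (adjusted p = 0.867) and that of the third was 1.54 ± 0.55 (SE, unadjusted p = 0.0496, adjusted p = 0.747), both in limma with each probe fitted on its own. The mean over the 3 probes was 0.59, the opposite sign to the value of the probe used in the test.

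The probe used in the test differs from the other 2 in its sequence, and the probes of other genes described next were looked at after that sequence was seen. It contains a run of 46 bases made only of G and T, and such a run or longer is in 0.010% of the probes of the array. The other 2 Fgfr1 probes have longest G and T runs of 8 and 4 bases, as printed above. A stretch of 15 of its bases or more was found in 49 probes of other genes, all well above background on all 6 arrays. After 3 days, 22 of these 49 had both GHCre arrays below both controls, 3 had them above and 24 overlapped. Of all probes above background on 2 or more arrays, 20.5% had them below and 17.1% above. The median difference of the 49 was -0.43. Their centred levels over the 6 arrays differed from those of the Fgfr1 probe by a median root mean square of 0.37, and 17 of them, 34.7%, were within 0.2. Of 18380 probes above background on all 6 arrays, 3.17% were within 0.2, with a median of 0.606. The 2 other Fgfr1 probes lay 0.61 and 0.90 from it, no nearer than that median.

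The 3 genes nearest to the Fgfr1 probe by this measure, among 11715, were Ercc6l2, Rhobtb1 and A930001C03Rik, at root mean square differences of 0.018, 0.022 and 0.056. Their probes hold G and T runs of 41, 39 and 37 bases, and that of Ercc6l2, printed above, shares an unbroken run of 32 bases with the Fgfr1 probe. What part of the signal of this probe comes from Fgfr1 RNA was not tested, and the directions of Fgfr1 stand as 1 probe lower and 2 probes higher.

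**Figure D3:**
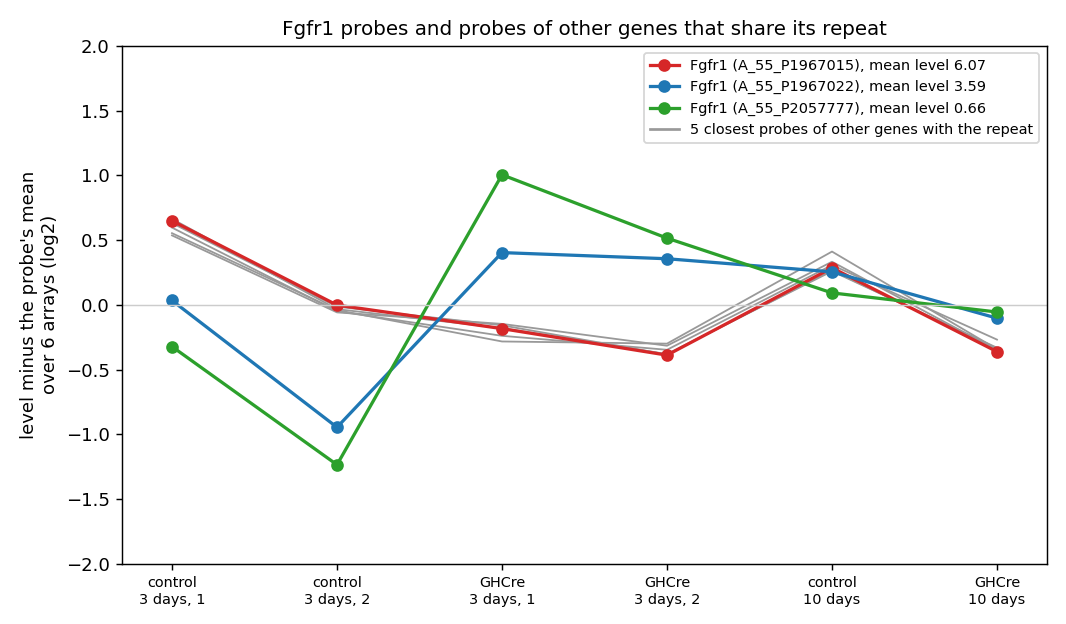
Level of each Fgfr1 probe minus its own mean over the 6 arrays (vertical axis, log2) on each array (horizontal axis). Red is the probe with the run of G and T, blue and green are the other 2 Fgfr1 probes, and grey lines are the 5 nearest probes of other genes that share its repeat. The grey lines follow the red one, which is highest on control replicate 1 of 3 days, where the blue and green lines are lower than in the GHCre mice of 3 days.

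Fgfr2, the receptor that in its epithelial form takes Fgf7 and Fgf10, had groups that overlapped after 3 days. Its brightest probe, A_55_P2094881, was at -3.15 and -2.30 in the controls, at -1.83 and -3.11 in the GHCre mice, and at -2.10 and -2.94 after 10 days, above background on all 6. The difference was 0.26 ± 0.67 (SE, adjusted p = 0.950 in limma), 1.33 within slide 1 and -0.81 within slide 3, and -0.84 after 10 days. The overlapping probe A_51_P432403, spotted 10 times, was above background on GHCre replicate 1 of 3 days alone, at -4.17. On the other 5 arrays it lay between -6.42 and -5.51. That array was also the highest of the 6 for the first probe.

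Fgfr3 had 3 probes above background on all 6 arrays, and after 10 days they disagreed in direction. The brightest, A_65_P06147, whose bases span 235 bases of the genome, was at 0.67 and -2.38 in the controls and at -0.70 and -0.92 in the GHCre mice after 3 days. Its controls lay 3.05 apart, and its difference was 0.04 ± 1.14 (SE, adjusted p = 0.996 in limma), -1.37 within slide 1 and 1.45 within slide 3. After 10 days it was at -1.39 in the control and at 0.92 in the GHCre array, 4.96-fold higher, where 12.6% of all genes were higher by 2-fold or more. The probe A_55_P1996578 was at -2.02 and -1.35 in the controls, at -1.54 and -2.46 in the GHCre mice, and at -1.08 and -3.69 after 10 days. It was thus 6.13-fold lower in the GHCre array of 10 days. The probe A_55_P2150422 was at -1.75 and -0.87, at -1.72 and -1.88, and at -1.86 and -1.73 in the same order, with a 10-day difference of 0.13. The 10-day mean over the 3 probes was -0.06, and no direction of Fgfr3 is given.

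Fgfr4, the receptor best known for regulating bile acid synthesis in the liver, had groups that overlapped after 3 days as well. Its brightest probe, A_55_P2121871, was at -1.29 and -1.56 in the controls, at -1.87 and -1.55 in the GHCre mice, and at -1.85 and -1.62 after 10 days. The difference was -0.29 ± 0.42 (SE, adjusted p = 0.913 in limma), -0.59 and 0.01 within slides 1 and 3 and 0.22 after 10 days. The other probe, A_55_P2120055, was above background on control replicate 1 of 3 days alone, at -2.47, while the other 5 arrays were between -6.43 and -4.64.

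After 10 days, 1 of the 9 tested members, Fgfr3, was higher in the GHCre array by 2-fold or more, against 12.6% of all genes. Lower by 2-fold or more were 2 members, Fgf1 and Fgf10, against 14.0% of all genes. With the lone arrays assumed to vary like those of 3 days, none of the 9 members was below an unadjusted p of 0.05 in limma, where 3.01% of all genes (629) were, and 0 genes passed the adjusted test. The median difference over the members was -0.56, against -0.00 over all genes. It was -0.25 with normexp background correction under either scaling, -0.28 over the 7 members above background on all 6 arrays and -0.12 with the mean of all probes. Of the 3 genes named, the second probe of Fgf1 and the second of Fgfr3 differed in the other direction, and Fgf10 has no other probe. That Fgf1 probe was not above background on the control of 10 days.

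Markers of other cells differed between the same arrays. The summed linear level of fibroblast and mural cell markers was 208 and 141 in the controls of 3 days and 274 and 228 in the GHCre mice, and 177 and 173 after 10 days. All 12 of these markers were tested, and 7 of the 12 had both GHCre arrays of 3 days above both controls and 0 below, against 16.7% and 21.3% of all genes, with a median difference of 0.72. Markers of lymphocytes summed to 16.4 and 22.2 in the controls and to 36.1 and 32.0 in the GHCre mice. Of 7 lymphocyte markers tested, 3 had both GHCre arrays above both controls and 2 had them below. The one below the unadjusted threshold was lower, while the median difference was 0.94. Markers of myeloid cells summed to 226 and 190 in the controls and to 149 and 152 in the GHCre mice, but Itgam and Csf1r make up most of that sum. Of 9 myeloid markers tested, 3 had both GHCre arrays below both controls and 1 had them above, 4 had a GHCre mean above the control mean, and the one below the unadjusted threshold was higher. Their median difference was -0.16, and 0.47 without GHCre replicate 1. Markers of hormone cells summed to 2501 and 2416 in the controls and to 1743 and 1520 in the GHCre mice after 3 days, and to 1970 and 2080 after 10 days. Of 11 hormone markers tested, 3 were lower and 1 was higher in both GHCre arrays of 3 days, with a median of -0.56 that was -0.014 without control replicate 1. After 10 days 6 of the 11 were lower by 2-fold or more and 1 was higher, against 14.0% and 12.6% of all genes. The median over the 11 was -3.28, although their sum was higher. Among myeloid markers Aif1, among lymphocyte markers Cd79b and Ms4a1, and among neural markers Nkx2-1 and Lhx2 were above background on no array. The part of these cells in the values of the FGF genes and of the lists was not tested.

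The rest of the pathway was described through 5 lists of other genes, counted in the same way. None of their genes passed the adjusted test. The other FGF ligands had 10 of 16 genes tested. In both GHCre arrays of 3 days 1 was higher and 1 lower, against 16.7% and 21.3% of all genes. None was at an unadjusted p below 0.05 in limma, against 6.58% of all genes. The median difference was -0.23, which was 0.25 without control replicate 2 and 0.06 without GHCre replicate 1. Fgf3, Fgf4, Fgf15 and Fgf16 were above background on no array. Fgf21, a hormone of metabolism and the gene counted as higher, was at -3.59 and -3.53 in the controls and at -2.34 and -3.50 in the GHCre mice. Its first control was not above background, and its difference within slide 3 was 0.04. The bone hormone Fgf23 was at 7.36 and 7.11 in the controls and at 6.84 and 6.84 in the GHCre mice, a difference of -0.39 ± 0.40 (SE, adjusted p = 0.884 in limma). Its bright probe has a run of 21 bases made only of C and A, found in 0.203% of probes, and its other probe was below background on all 6 arrays.

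Among proteins that hold or present FGFs, 16 of 18 coreceptors and binding proteins were tested, with 4 higher and 3 lower in both GHCre arrays (16.7% and 21.3% of all genes) and a median of 0.53. The klotho coreceptors Kl and Klb were above background on no array. Perlecan (Hspg2), a heparan sulphate proteoglycan of basement membranes, was at 2.38 and 1.26 in the controls and at 3.48 and 3.30 in the GHCre mice. Its difference of 1.57 ± 0.56 (SE, unadjusted p = 0.0487, adjusted p = 0.757 in limma) was the one of this list below the unadjusted threshold, and its other probe differed by 0.88. The FGF carrier Fgfbp3 differed by 2.50 ± 0.94 (SE, adjusted p = 0.760 in limma), but its controls lay 1.93 apart. The adhesion molecule Ncam1 differed by -0.81 at its brightest probe. Its probe A_55_P2028942 differed by 0.95, in the opposite direction, with overlapping groups. That probe was above background on 5 arrays, not on control replicate 2 of 3 days. The remaining Ncam1 probe was above background on no array, so the direction of Ncam1 depends on the probe. The proteoglycan Sdc3 differed by 0.95. The list's median was 0.01 without control replicate 2 and 0.086 with the mean of all probes. No gene of it was below the unadjusted threshold with a block for the replicate or for the slide, or without control replicate 2, GHCre replicate 1 or GHCre replicate 2, and 4 were without control replicate 1, 3 of them higher.

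Enzymes that build and trim heparan sulphate had 13 of 15 genes tested, with 4 higher and 1 lower (16.7% and 21.3% of all genes). None was below the unadjusted threshold, where 6.58% of all genes were. With normexp background correction under either scaling, 1 was, and it was higher. The same count held over genes above background on all 6 arrays and with the mean of all probes. With a limma prior that depended on intensity, 1 higher and 1 lower gene were below it. The median was 0.56, between 0.36 and 0.68 under the alternatives that keep the title groups. Sulf1, a sulphatase that removes sulphate groups outside the cell, was at 2.67 and 1.26 in the controls and at 3.76 and 3.36 in the GHCre mice. Its 2 probes differed by 1.60 and 1.59. The second of these lay near background, and was not above it on control replicate 1 of 3 days, at -4.36, or on the GHCre array of 10 days. The related Sulf2 differed by 1.41, but its controls were at 1.48 and -0.83, and the difference was 0.26 without control replicate 2 and 2.57 without control replicate 1. The glycosyltransferase Extl3 differed by 0.56 and the sulphotransferase Hs2st1 by -0.77. After 10 days the list's median was -0.29.

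The 22 signal transducers were all tested, with 5 higher and 5 lower (16.7% and 21.3% of all genes) and a median of 0.10. That median was 0.02 without control replicate 1, 0.17 without GHCre replicate 2 and -0.13 over the 19 genes above background on all 6 arrays, so it has no settled sign. Below the unadjusted threshold were 2 of them, one being Sos1, a guanine nucleotide exchange factor that acts downstream of the receptors. It was not well above background in the controls of 3 days and was at least 1.84-fold higher in the GHCre mice (adjusted p = 0.690 in limma). After 10 days the GHCre array was not above background and was at least 7.95-fold lower than the control. The other exchange factor, Sos2, differed by 1.704. The count below the unadjusted threshold was 6 without control replicate 1, 4 of them higher, and 1 without GHCre replicate 1 or GHCre replicate 2.

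Feedback inhibitors and targets, genes that FGF signalling through mitogen-activated protein kinases is known to induce, had 18 of 19 genes tested. Both GHCre arrays of 3 days were above both controls for 6 of them and below for none. The 6 were Spry1, Spry2, Spred1, Dusp4, Dusp6 and Fos, and the background for that direction was the 16.7% above. Dusp6, a phosphatase that switches off the kinase ERK, was at 2.79 and 2.53 in the controls, at 4.34 and 3.94 in the GHCre mice, and at 3.15 and 3.18 after 10 days. Its difference was 1.48 ± 0.43 (SE, unadjusted p = 0.0253, adjusted p = 0.721 in limma), or 1.55 and 1.41 within slides 1 and 3. It was 0.04 after 10 days.

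Spry2, an inhibitor of receptor tyrosine kinase signalling, was at -0.81 and -0.81 in the controls, at 1.19 and 0.25 in the GHCre mice, and at 0.43 and -0.44 after 10 days. Its difference was 1.53 ± 0.51 (SE, unadjusted p = 0.0404, adjusted p = 0.754 in limma). The related Spry1 was at -0.48 and 0.13 in the controls and at 0.595 and 1.204 in the GHCre mice, a difference of 1.07. The phosphatase Dusp4 was not above background in the controls of 3 days and was above it in both GHCre arrays (adjusted p = 0.690 in limma). The bound used here takes the dimmest signal called above background on each control array and averages it over the controls. The GHCre mean of Dusp4 was below that average, so no lower bound on its fold is given. Dusp4 is still counted among the 6 higher genes and the 3 below the unadjusted threshold. After 10 days Dusp4 went the other way, at -3.38 in the control and at -5.36 in the GHCre array, which was not above background and at least 1.86-fold lower. The list's median was 0.38, between 0.23 and 0.55 under the alternatives that keep the title groups, against -0.04 for all genes. The 3 below the unadjusted threshold, Spry2, Dusp4 and Dusp6, became 0 without GHCre replicate 2, and 1 gene of the list was below it without any one of the other 3 arrays. These genes are induced by many growth factors, and no test of the list was made.

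**Figure D4:**
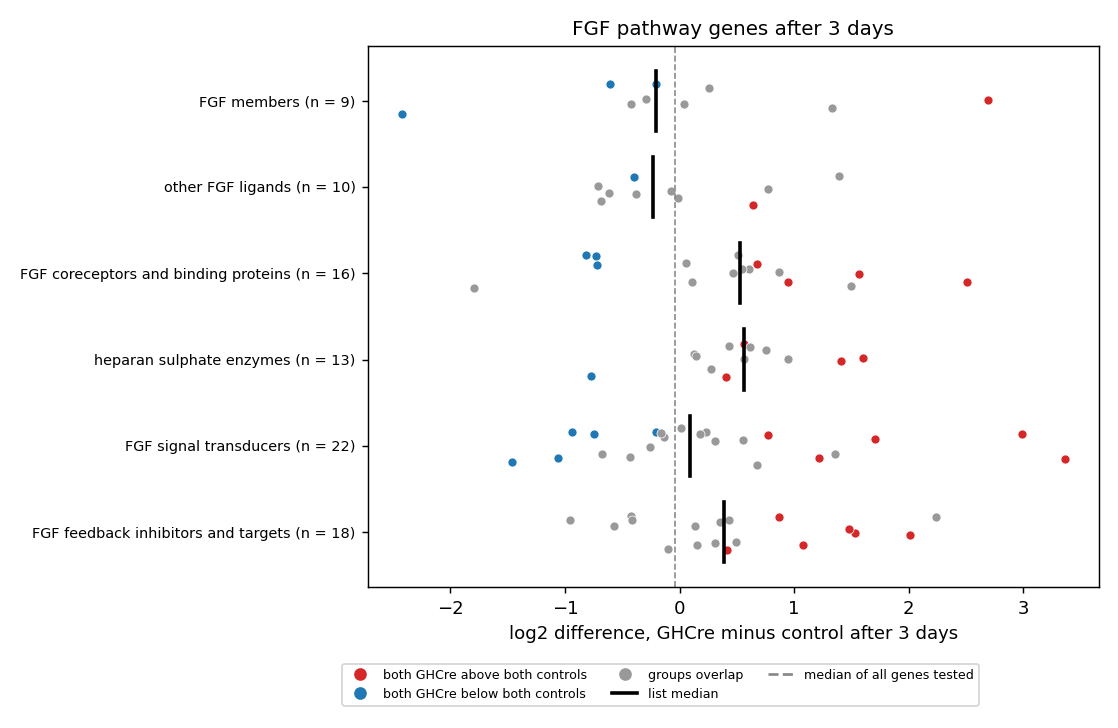
Log2 difference, GHCre minus control after 3 days (horizontal axis), of the tested genes of 6 lists, 1 point a gene. Red points have both GHCre arrays above both controls, blue points both below, grey points overlap, black bars are list medians and the dashed line is the median of all genes tested at -0.04. The feedback list has 6 red points and no blue one.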

How the data were processed

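RNA of the sorted cells was measured on 6 Agilent 1-colour arrays. Agilent Feature Extraction 10.7.3.1 read the spots, per the file headers. What the authors deposited as processed signal is a background-subtracted intensity, not scaled between arrays. The authors' deposited series table holds log2 values of 38017 probes that correlate with quantile normalized processed signal at r of at least 0.9999 on each array, and it was used as an alternative.

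The log2 processed signal minus each array's 75th percentile was averaged over the spots of a probe. A gene was its brightest probe, kept if well above background on at least 2 of 6 arrays.  The 4 groups were fitted in limma 3.58.1 (R 4.3.3) on all 6 arrays with 2 residual degrees of freedom, with Benjamini-Hochberg adjustment over 20916 genes. The code was tested on simulated data. The 10-day groups hold 1 array each, so a difference there has no replicate check and was called at 2-fold. A limma contrast of 10 days, with the lone arrays assumed to vary like those of 3 days, was added after seeing the data. A symbol was found for 31203 of the 39429 probes in the files used here.

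Named are all FGF members with all their probes, up to 4 genes of lowest unadjusted p in each pathway list that were above background in the brighter group, the genes nearest to the ligand and the receptor of highest mean level, and markers as a check. Some genes of these lists are not reported here. Members and lists were chosen with earlier results of these data known. Genes named because both GHCre arrays differ, and Ercc6l2's probe sequence, were chosen after their values were seen. In the 3-day groups, a control and a GHCre array of the same replicate number share a slide. The deviations of such arrays from their group means correlated at 0.086. Alternatives were other background corrections and normalizations, other filters, other rules for several probes, a block for the replicate or slide, the grouping of the free-text descriptions and leaving out each replicate.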

Additional observations from a re-analysis of the deposited data

How the results depend on the processing

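No gene passed the adjusted test under any alternative. Agilent's background correction was replaced by normexp with an offset of 50. This and the filter moved the 10-day count of genes past 2-fold from 5570 to 2234 (75th percentile), 2294 (quantile) and 2720 (above background on all 6 arrays). The median 3-day difference of all genes went from -0.04 to -0.16 with normexp and the 75th percentile, and the share of higher genes among those below the unadjusted threshold in the difference of effects went from 36.9% to 48.7%. With normexp and the 75th percentile, Fgfr2 was -0.016 and Fgfr3 -0.11 after 3 days and the difference of effects of Fgf7 was 0.022. With quantile normalization after normexp, Fgfr3 was -0.10 and the difference of effects of Fgf7 was 0.036. With the mean of all probes, Fgf8 was 0.21, Fgfr1 0.59 and Fgfr3 -0.25 after 3 days, and Fgfr3 was -0.061 after 10 days. With the grouping of the descriptions (regenerative against control after 3 days), Fgf7 was -1.72, Fgf8 0.10, Fgf10 0.047, Fgf18 0.14 and Fgfr3 -2.68. The cause was not tested.

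Leaving out a replicate turned the 3-day difference of Fgf10 to 0.26 and of Fgfr2 to -0.17 (both without control replicate 1), of Fgfr2 to -0.39 and Fgfr3 to -0.07 (without GHCre replicate 1) and of Fgfr3 to -1.48 (without control replicate 2). It turned the difference of effects of Fgf7 to 0.82 and of Fgfr1 to 0.29 (without control replicate 2), and of Fgfr1 to 0.07 (without GHCre replicate 1). The ranges over the replicates left out were -1.10 to 0.26 for Fgf10, -0.39 to 0.90 for Fgfr2 and -1.48 to 1.56 for Fgfr3 after 3 days, and -1.77 to 0.82 for Fgf7 and -0.36 to 0.29 for Fgfr1 in the difference of effects. The count at an unadjusted p below 0.05 ranged from 785 without GHCre replicate 1 to 2282 without control replicate 2, against 1377, and for the difference of effects it was 822, with 1280 and 1455 without control replicates 1 and 2. Fgf18 kept its sign in the title groups, with an adjusted p between 0.40 and 1.00. The filter on all 6 arrays leaves Fgf1 and Fgf18 without a value.

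With a replicate block, which is also the slide for the 3-day arrays, the 3-day differences were the same, 1458 genes were below the unadjusted threshold, Fgf1 now among them and Hspg2 no longer, and 0 passed the adjusted one. The pairing rests on a shared number. A slide block could not be estimated after 10 days, because the control array is alone on its slide. The list values under alternatives were added after seeing the data. Beyond these, the small number of arrays limits the precision, and dim probes such as those of Fgf2, Fgf18 and Fgf1 lie near background.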
